A study of Mus musculus with 6 samples.

Results

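The Hox genes, the family of homeodomain transcription factors that mark position along the head-to-tail axis, were described in 3 cell subsets that had been separated by flow cytometry from the dorsal root ganglia (DRG) of mice. The members are the 39 genes, of 23029 in the deposited RPKM table, whose symbol is Hox followed by a cluster letter from a to d and a number. Of these, 11 lie in the Hoxa cluster, 10 in Hoxb, 9 in Hoxc and 9 in Hoxd. All cells came from animals of the genotype GINIP+/mcherry, which are heterozygous for an mCherry reporter allele of GINIP, a partner of inhibitory G proteins, and cells were stained with isolectin B4 (IB4) before sorting. DP cells were IB4+GINIP+ and are labelled Mrgprd+ sensory neurons, the subset named C-LTMR, for low-threshold mechanoreceptors with C fibres, was IB4-GINIP+, and DN cells were IB4-GINIP- and are labelled as the remaining sensory neurons. Each subset had 2 libraries (n = 2 for every mean ± SD below), made from amplified total RNA. The labels do not give the age or sex of the animals, the spinal levels from which ganglia were taken, or whether the replicates are different animals. The p-values below therefore rest on the spread between these libraries, which may be technical.

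Hox genes stand in 4 clusters, and genes of equal number in different clusters are paralogs that descend from a common ancestor. Their order along the chromosome follows their order of expression along the body, with low numbers used from the hindbrain and neck, middle numbers at forelimb and trunk levels and high numbers at lumbar, sacral and tail levels. Sensory and motor neurons keep much of the Hox pattern of their level after birth, and Hox proteins bind DNA together with Pbx and Meis cofactors.

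Values are RPKM, the authors' reads per kilobase of gene, scaled to the size of the library. Levels of different genes can be compared only roughly. The RNA was amplified, and the annotation behind the gene lengths is not known. The depth estimated from the steps of low values was between 32.1 and 41.9 M reads per library. On the scale log2(RPKM + 0.5), replicates correlated across the 12820 genes tested with r between 0.986 and 0.996. Of 11 markers of Mrgprd nociceptors, 11 were called higher in DP than in DN and 11 higher than in C-LTMR, and of 10 C-LTMR markers 10 were called higher in C-LTMR than in DN and 9 higher than in DP. Of the same 10, 6 were called higher in DP than in DN. Over all genes tested, 6.66% were called higher in DP than in DN and 4.52% higher in DP than in C-LTMR. The shares higher in C-LTMR were 7.32% over DN and 6.85% over DP. The marker lists were chosen with earlier results of these data known, so these counts are no independent support for the identity of the subsets. Otoa and Lpar5 passed the filter (a mean of at least 0.5 RPKM) only through DP, and Cacna1i only through C-LTMR. The summed immune markers were highest in DP and the summed red blood cell markers in C-LTMR. In DN they summed to 61.2 and 114 RPKM and to 25.5 and 41.5 RPKM. S100a8, S100a9, Lyz2 and Ngp led the immune sum in DP. Cd14 (20.1 and 41.7 RPKM in DN), Cd68 and Aif1, of the same list, were highest in DN. So was the red blood cell gene Bpgm, at 23.4 and 33.9 RPKM against 20.6 and 21.8 in C-LTMR. Markers of glial and of vascular cells and fibroblasts stood apart in DN. The summed RPKM of 16 markers of satellite glia and Schwann cells was 9150 and 18901 in the DN libraries, against 1329 to 1829 in DP and 2440 to 3344 in C-LTMR, and that of 19 markers of endothelial cells, pericytes and fibroblasts was 675 and 1085 against 33.0 to 93.3 in the other 4. The endothelial gene Cdh5 was at 0.0894 and 0.0262 RPKM in DP, 0.00733 and 0.00777 in C-LTMR and 4.76 and 9.38 in DN. Another, Cldn5, was at 1.81 and 1.03 in DP, 0.144 and 0.0875 in C-LTMR and 127 and 217 in DN. Among the 16, Pmp22 was highest in C-LTMR, at 1203 and 1166 RPKM against 768 and 680 in DN. Not all of the 19 followed either. Rgs5 was at 79.5 and 82.3 RPKM in C-LTMR, 6.42 and 6.85 in DP and 6.77 and 12.7 in DN, so it made most of the C-LTMR sum. Pdgfrb was at 3.93 and 4.17 in DP, 0.410 and 0.582 in C-LTMR and 2.25 and 3.21 in DN. In such bulk samples, fewer cells of a type and less RNA per cell cannot be told apart.

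Most of the family was expressed in all 3 subsets up to paralog number 10 and nearly silent beyond it. A value counts here as above the floor when it exceeds that of 3 reads in the shallowest library, computed from the gene's exon length in GENCODE M21. By this measure 28 of the 39 members were above the floor in all 6 libraries, 8 were at or under it in all 6, and 4 of those 8 were listed at 0 throughout (Hoxa13, Hoxc12, Hoxc13 and Hoxd13). The other 4 of the 8 were Hoxb1, Hoxb13, Hoxc11 and Hoxd12, each above 0 in 1 library only. Above number 10, Hoxd11, a gene of the limb and kidney, was measured in every library, at 0.107 and 0.136 RPKM in DP, 0.104 and 0.0882 in C-LTMR and 0.183 and 0.169 in DN. Hoxa11 was listed at 0 in 5 libraries and at 0.149 RPKM in DN replicate 1. Its antisense gene Hoxa11as was listed at 0 in DP and C-LTMR and at 0.0586 and 0.0472 RPKM in DN, and since the use of strand is not known, reads of this pair cannot be told apart. Hoxa6 (0.0340 to 0.197 RPKM) and Hoxb8 (0.0180 to 0.242 RPKM) were above the floor in 4 and 5 libraries. The map of levels shows these rows of near-zero values and the few bright ones.

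**Figure D1:**
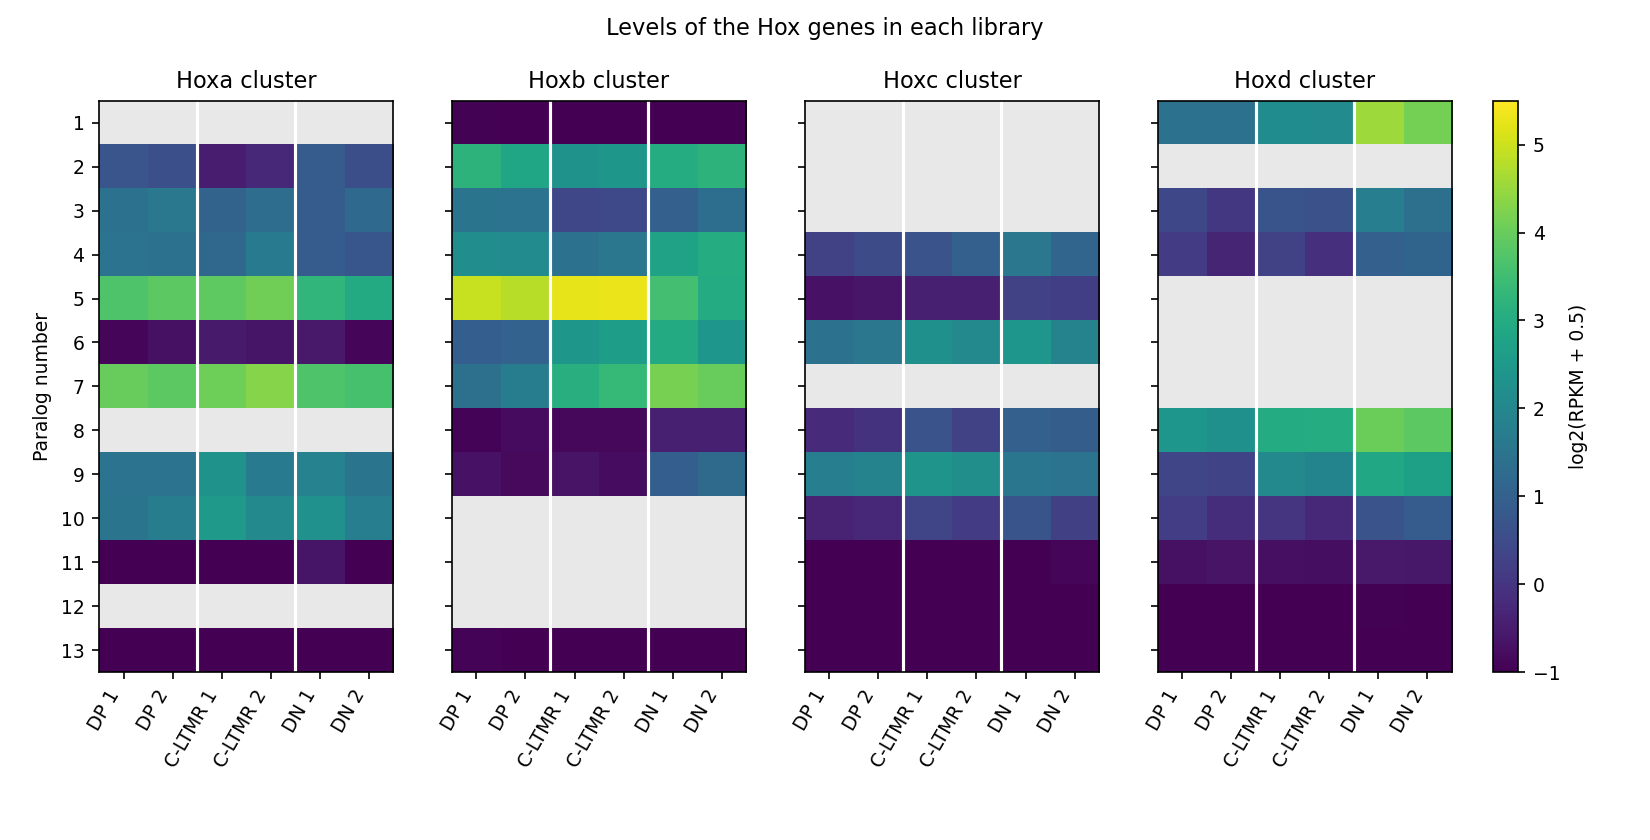
Level of the Hox genes in each library, as log2(RPKM + 0.5) in colour, by cluster (panels), paralog number (rows, 1 to 13) and library (columns). Grey cells are numbers that a cluster does not have or that are not shown. Hoxb5, Hoxa5 and Hoxa7 are bright in all 6 libraries, and rows 11 to 13 are dark in every cluster.

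Numbers 5 and 7 carried much of the family's RNA. Hoxb5, which acts in the enteric nervous system, had the highest mean level of all members (chromosome 11, 96303512 to 96306121, GRCm38). It was at 30.7 and 27.3 RPKM in DP, 38.0 and 39.0 in C-LTMR and 11.2 and 7.50 in DN. Hoxa7, which overlaps the antisense gene Hoxaas3, was the leading member of the Hoxa cluster (chromosome 6, 52215624 to 52218573). It was at 15.4 and 13.99 RPKM in DP, 16.2 and 19.4 in C-LTMR and 12.6 and 11.8 in DN. The libraries of DP and C-LTMR thus lay above those of DN for both genes, by a wide margin for Hoxb5 and a narrow one for Hoxa7. Hoxa5, needed for the lung and for phrenic motor neurons, lay between 12.7 and 16.5 RPKM in DP and C-LTMR and at 9.24 and 7.39 in DN. In the Hoxc cluster Hoxc6, a gene of the forelimb level, led, at 2.25 and 2.47 RPKM in DP, 4.31 and 3.66 in C-LTMR and 4.83 and 3.28 in DN, where C-LTMR and DN overlapped and DP lay below both. In Hoxd the leading gene was Hoxd8, with 4.31 to 16.1. The highest-numbered members with a mean of at least 0.5 RPKM were Hoxa10, Hoxb9, Hoxc10 and Hoxd10. Of these Hoxa10, a gene of the lumbar cord and hindlimb, was at 2.34 and 2.87 RPKM in DP, 5.19 and 3.65 in C-LTMR and 4.35 and 2.91 in DN, so that DN lay narrowly above DP and overlapped C-LTMR.

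Summed over each cluster, the subsets differed most in Hoxd. The 9 Hoxd genes, on chromosome 2 from 74668310 to 74765142, summed to 10.03 and 8.66 RPKM in DP, 17.5 and 16.6 in C-LTMR and 51.5 and 42.6 in DN. The DN mean was 5.03 times that of DP and 2.75 times that of C-LTMR, with no overlap between any of the 3 subsets. The Hoxa sum went the other way, with 40.1 and 40.8 RPKM in DP, 44.4 and 48.3 in C-LTMR and 34.5 and 29.1 in DN. Hoxb sums were 49.6 and 44.8 in DP, 58.7 and 62.9 in C-LTMR and 53.1 and 48.1 in DN, where DN and DP overlapped. Hoxc had the lowest sum of the 4 clusters in each subset, at 6.62 and 7.56 RPKM in DP, 12.1 and 10.8 in C-LTMR and 13.1 and 9.99 in DN. All members together summed to 141 ± 15.8 RPKM in DN, 104 ± 3.20 in DP and 136 ± 4.202 in C-LTMR. These sums are descriptions and carry no test.

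**Figure D2:**
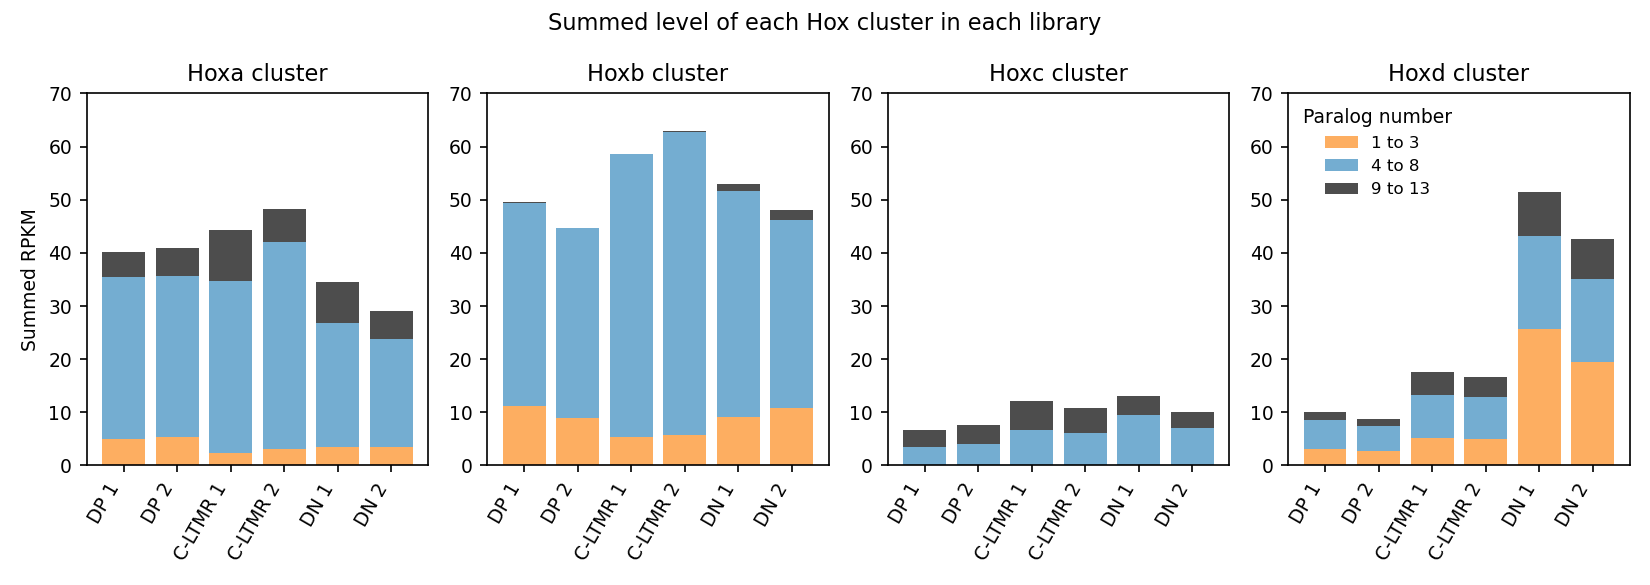
Summed RPKM of each Hox cluster (panels) in each library (bars), split by paralog numbers 1 to 3, 4 to 8 and 9 to 13. The Hoxd bars of the DN libraries reach 51.5 and 42.6, against at most 17.5 in the other 4 libraries.

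The shares of the paralog bands also differed between the subsets, in part through single genes. Members numbered 4 to 8 held 60.8 ± 0.367% of the summed Hox RPKM in DN, 73.2 ± 0.306% in DP and 77.5 ± 2.51% in C-LTMR. Members numbered 1 to 3 held 25.5 ± 0.502% in DN, 17.4 ± 0.992% in DP and 9.76 ± 0.318% in C-LTMR, and those numbered 9 to 13 held 13.7 ± 0.135%, 9.42 ± 0.686% and 12.7 ± 2.82%. These shares rest on the leading genes: without the member of highest mean in each cluster, numbers 1 to 3 held 35.9% in DN, 33.9% in DP and 19.5% in C-LTMR. Numbers 4 to 8 then held 45.0%, 47.8% and 55.1%, and numbers 9 to 13 held 19.2%, 18.3% and 25.4%, so that the highest share of numbers 9 to 13 was in C-LTMR and no longer in DN. The removal left in Hoxd1, the leading gene among low numbers in DN, at 22.7 and 17.3 RPKM in DN against 2.22 to 3.96 in the other 4 libraries. Hoxd1 made 20.0 of the mean sum of 36.0 RPKM of numbers 1 to 3 in DN. In DP it made 2.22 of 18.1 and in C-LTMR 3.92 of 13.3. The high share of numbers 1 to 3 in DN thus leans on Hoxd1, and no shares without it were computed. Paralog group 5, which sums Hoxa5, Hoxb5 and Hoxc5, showed the reverse order, with 21.2 and 15.6 RPKM in DN against 41.6 to 55.8. A mean paralog number weighted by RPKM was lower in DN than in the GINIP+ subsets for Hoxd (4.84 ± 0.190, against 6.01 ± 0.0144 in DP and 6.21 ± 0.00946 in C-LTMR). For Hoxb it was higher in DN (5.22 ± 0.131) and C-LTMR (5.09 ± 0.0195) than in DP (4.48 ± 0.0810). Hoxd1 alone made 20.0 of the 47.0 RPKM of the mean Hoxd sum in DN. In DP it made 2.22 of 9.34 and in C-LTMR 3.92 of 17.1. The lower Hoxd number in DN thus leans on this gene, and no weighted mean without Hoxd1 was computed. With Hoxd1 included, Hoxd and Hoxb did not move together toward lower or higher numbers in DN.

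DP against DN compares the Mrgprd neurons with the cells outside both gates. Of the 39 members, 26 had a mean of at least 0.5 RPKM and entered the test, a limma fit over all 6 libraries and 12820 genes, and 13 did not. Calls required both an adjusted p (Benjamini-Hochberg, BH, over all genes tested) under 0.05 and a log2 fold change of 1 or more in either direction. In this comparison 10 of the 26 were called, 9 higher in DN and 1 higher in DP, while of all genes tested 27.1% were called, 20.4% as higher in DN and 6.66% as higher in DP. The members' median log2 fold change (DP over DN) was -0.69, against -0.13 over all genes. After quantile normalization the 10 calls became 6 higher in DN and 4 higher in DP, Hoxb5, Hoxa3 and Hoxa4 among them, and the members' median became -0.10 against 0.15 over all genes. Non-overlap of the 2 libraries of each subset was common among all genes tested (82.5% in DP against DN, 71.5% in DP against C-LTMR and 80.3% in C-LTMR against DN), and 24, 22 and 19 of the 26 members did not overlap in these comparisons.

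Of the 6 Hoxd members tested, 5 were called higher in DN than in DP and 0 lower. The sixth, Hoxd10, passed the filter only through DN. It was at 0.629 and 0.409 RPKM in DP, 0.476 and 0.335 in C-LTMR and 1.10 and 1.35 in DN. The strongest was Hoxd1, a gene that nerve growth factor induces in developing mouse nociceptors (chromosome 2, 74762980 to 74765142). Hoxd1 was at 22.7 and 17.3 RPKM in DN, 2.23 and 2.22 in DP and 3.96 and 3.87 in C-LTMR. Both DN libraries were thus far above the others, and the DP and C-LTMR replicates were each almost equal. The log2 fold change was -2.90 (SE 0.142, BH-adjusted p from limma = 1.06e-05) for DP over DN and -2.20 (SE 0.142, BH-adjusted p from limma = 2.97e-05) for C-LTMR over DN. In the authors' TMM-normalized counts Hoxd1 was at 1363 ± 209 in DN, 151 ± 2.51 in DP and 258 ± 3.66 in C-LTMR, and both calls held there. Beside it, 7 peptidergic neuron markers summed to 8913 and 8056 RPKM in DN against 1333 to 1660 in the other libraries. Calca (5045 and 4465 in DN) and Tac1 (2793 and 2650 in DN) led that sum. Calcb, of the same list, ran the other way, at 576 and 521 RPKM in DP, 343 and 353 in C-LTMR and 282 and 233 in DN. The part of cell composition in the result for Hoxd1 was not tested.

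Hoxd9, used at limb and trunk levels (chromosome 2, 74697763 to 74700208), was at 0.781 and 0.770 RPKM in DP, 3.65 and 3.29 in C-LTMR and 6.998 and 5.96 in DN, a rising order with no overlap. Its log2 fold change was -2.45 for DP over DN (SE 0.126, BH-adjusted p from limma = 1.26e-05) and -1.64 for DP over C-LTMR (SE 0.126, BH-adjusted p from limma = 0.000164). Hoxd8 (chromosome 2, 74705489 to 74707307) showed the same order, at 4.83 and 4.31 RPKM in DP, 7.54 and 7.57 in C-LTMR and 16.1 and 14.1 in DN, and only DP over DN was called (log2 fold change -1.62, limma BH-adjusted p = 3.92e-05). Hoxd3 and Hoxd4, which pattern the neck vertebrae, were at 2.94 and 2.12 RPKM and at 1.48 and 1.63 RPKM in DN, against 0.530 to 1.12 and 0.294 to 0.689 in the other 4 libraries. Both were called in DP over DN (-1.36 and -1.13, limma BH-adjusted p = 0.000929 and 0.00312). After quantile normalization both fell short (-0.74 and -0.47, BH-adjusted p from limma = 0.0210 and 0.0952), and Hoxd4 did so without DP replicate 2 (-0.89) and with a pseudocount of 1 (-0.82). These 2 genes share exons on the same strand in GENCODE M21, so reads could have been counted for either.

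The promoters of Hoxd1 and Hoxd8 are printed because both genes were called higher in DN, and that of Hoxa2 because Hoxa2 was called lowest in C-LTMR. Each runs from 250 bases before to 50 bases after the annotated start, 5′ to 3′ on the gene's strand (RefSeq, GRCm38.p6). Capitals mark the matches, on either strand, to 6 short motifs. The TATA box was searched as TATAAA. The CCAAT box was searched as CCAAT. The Pbx-Hox composite site was searched as TGATTNAT. The Meis core was searched as TGACAG. The homeodomain core was searched as TAATTA. The nuclear receptor core was searched as AGGTCA. Neighbouring matches can touch or overlap.
Hoxd1, chr2:74762730-74763029, plus strand: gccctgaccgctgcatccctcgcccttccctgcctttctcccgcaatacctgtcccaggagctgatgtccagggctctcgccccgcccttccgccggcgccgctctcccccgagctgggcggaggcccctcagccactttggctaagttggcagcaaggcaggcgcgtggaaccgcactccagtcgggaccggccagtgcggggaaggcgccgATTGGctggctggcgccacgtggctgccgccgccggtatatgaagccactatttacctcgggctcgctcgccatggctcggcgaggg
Hoxd8, chr2:74704365-74704664, plus strand: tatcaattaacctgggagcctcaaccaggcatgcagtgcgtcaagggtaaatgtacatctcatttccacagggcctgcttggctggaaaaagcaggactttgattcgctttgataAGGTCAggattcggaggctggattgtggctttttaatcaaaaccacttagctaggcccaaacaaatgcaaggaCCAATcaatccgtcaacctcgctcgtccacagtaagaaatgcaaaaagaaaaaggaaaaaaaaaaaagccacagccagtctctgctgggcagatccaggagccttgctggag
Hoxa2, chr6:52164782-52165081, minus strand: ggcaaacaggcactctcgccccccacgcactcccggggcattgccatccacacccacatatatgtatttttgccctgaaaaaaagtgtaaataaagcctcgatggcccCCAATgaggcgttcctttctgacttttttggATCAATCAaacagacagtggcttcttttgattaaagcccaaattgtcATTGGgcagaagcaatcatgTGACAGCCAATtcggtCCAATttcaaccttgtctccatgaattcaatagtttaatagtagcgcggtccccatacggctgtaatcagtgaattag
The RefSeq start of Hoxd8 lies upstream of the start the deposited table lists. Hoxd1 held a CCAAT box on the minus strand as its only match, and Hoxd8 held an AGGTCA and a CCAAT, both on the plus strand. Hoxa2 held a Pbx-Hox composite, a Meis core and 4 CCAAT boxes, and the Meis core ends where a CCAAT begins. Of the 24 promoters that RefSeq gave for 22 members, 15 held a CCAAT (62.5%, against 37.4% of all 32851 promoters of this length), 7 an AGGTCA (29.2% against 16.3%), 4 a TATAAA (16.7% against 13.6%), 2 a Pbx-Hox composite (8.33% against 3.22%), 2 a Meis core (8.33% against 19.2%) and 2 a TAATTA (8.33% against 5.29%). A match is a run of letters and no evidence of binding.

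In the Hoxb cluster, neighbours differed in direction between DP and DN. Hoxb5, which overlaps the antisense gene Hoxb5os, was the member called higher in DP (log2 fold change 1.61 ± 0.176 SE, BH-adjusted p from limma = 0.000299), with the values given above, and it was also called higher in C-LTMR than in DN (2.01, limma BH-adjusted p = 0.00011). Hoxb6, listed 1942 bases from it (chromosome 11, 96299171 to 96301569), was at 1.44 and 1.56 RPKM in DP, 4.94 and 5.77 in C-LTMR and 7.30 and 4.82 in DN. DP was the low subset for this gene, and C-LTMR and DN overlapped (log2 fold change -0.14, 95% interval -0.60 to 0.32). DP over DN was called at -1.69 (limma BH-adjusted p = 0.000355). Hoxb7 (chromosome 11, 96286646 to 96290163) was at 2.13 and 2.90 RPKM in DP, 8.14 and 9.73 in C-LTMR and 17.5 and 15.3 in DN, so the mean of DN was 6.52 times that of DP. Its log2 fold change for DP over DN was -2.50 (SE 0.160, BH-adjusted p from limma = 2.83e-05).

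Hoxb9, a gene of thoracic levels (chromosome 11, 96271330 to 96276593), had by ratio the widest gap between DN and the GINIP+ subsets among members above the floor. It was at 1.42 and 1.88 RPKM in DN, against 0.123 and 0.0580 in DP and 0.130 and 0.0803 in C-LTMR, a ratio of means of 18.2 over DP and 15.7 over C-LTMR. On the log2(RPKM + 0.5) scale, which understates changes of low genes, the change was -1.86 for DP over DN and -1.82 for C-LTMR over DN. Hoxb9 passed the filter only through DN, the subset where it is high, so its calls in both comparisons with DN are no independent support for a difference, and it was not tested with a mean of at least 1 RPKM as the filter. The difference of DP over C-LTMR was -0.04, with a 95% interval of -0.42 to 0.35. Hoxb8, whose loss in mice leads to excessive grooming, lies beside Hoxb9 and was at 0.242 and 0.238 RPKM in DN and at most 0.0660 in the other libraries, too low for the filter. The anterior Hoxb genes did not follow: Hoxb2, a hindbrain gene, was at 8.77 and 6.71 RPKM in DP and 7.69 and 8.70 in DN, and Hoxb3 at 2.33 and 2.27 in DP and 1.49 and 2.03 in DN. Neither was called (limma BH-adjusted p = 0.635 and 0.103).

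Of 5 Hoxc members tested, only Hoxc8, which sets the identity of forelimb motor neuron pools, was called in DP against DN. It was at 0.351 and 0.462 RPKM in DP, 1.08 and 0.705 in C-LTMR and 1.49 and 1.38 in DN (DP over DN -1.10, limma BH-adjusted p = 0.00145). The call was lost after quantile normalization (-0.44, BH-adjusted p from limma = 0.0592) and with a pseudocount of 1 (-0.79). Hoxc9, which gives motor neurons their thoracic identity, ran against the other Hoxc genes. It was at 2.92 and 3.23 RPKM in DP, 4.61 and 4.09 in C-LTMR and 2.42 and 2.27 in DN, the only Hoxc gene with its lowest mean in DN. Neither of its comparisons with DN reached the fold criterion (0.33 and 0.77). Hoxc4 was at 0.695 and 0.907 RPKM in DP and 2.48 and 1.69 in DN and just missed that criterion (-0.98). Hoxc5 was at 0.122 and 0.153 RPKM in DP, 0.246 and 0.238 in C-LTMR and 0.724 and 0.658 in DN. It was below the filter and has no test in the main fit, and it shares annotated exon sequence with Hoxc10.

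Of the 8 Hoxa genes tested, 0 were called between DP and DN, and 5 had a positive and 3 a negative log2 fold change (median 0.36). For Hoxa2 the 95% interval was -0.46 to 0.33, and for Hoxa7 it was -0.02 to 0.54. The Hoxa and Hoxd clusters thus had medians of opposite sign in this comparison (0.36 and -1.49), as the plot of fold changes by paralog number shows, and no test of that difference was run. Under quantile normalization the medians were 0.76 and -1.06, and after rescaling to pan-sensory-neuron genes 0.21 and -1.62. All 6 Hoxd members were negative under both scalings, and 1 of them, Hoxd10, passed the filter only through DN. Other tested Hoxa genes were Hoxa3 (1.35 to 2.55 RPKM over the 6 libraries), Hoxa4 (1.17 to 2.73) and Hoxa9 (2.28 to 4.57), which act in the neck and throat, the neck and the lumbar cord.

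**Figure D3:**
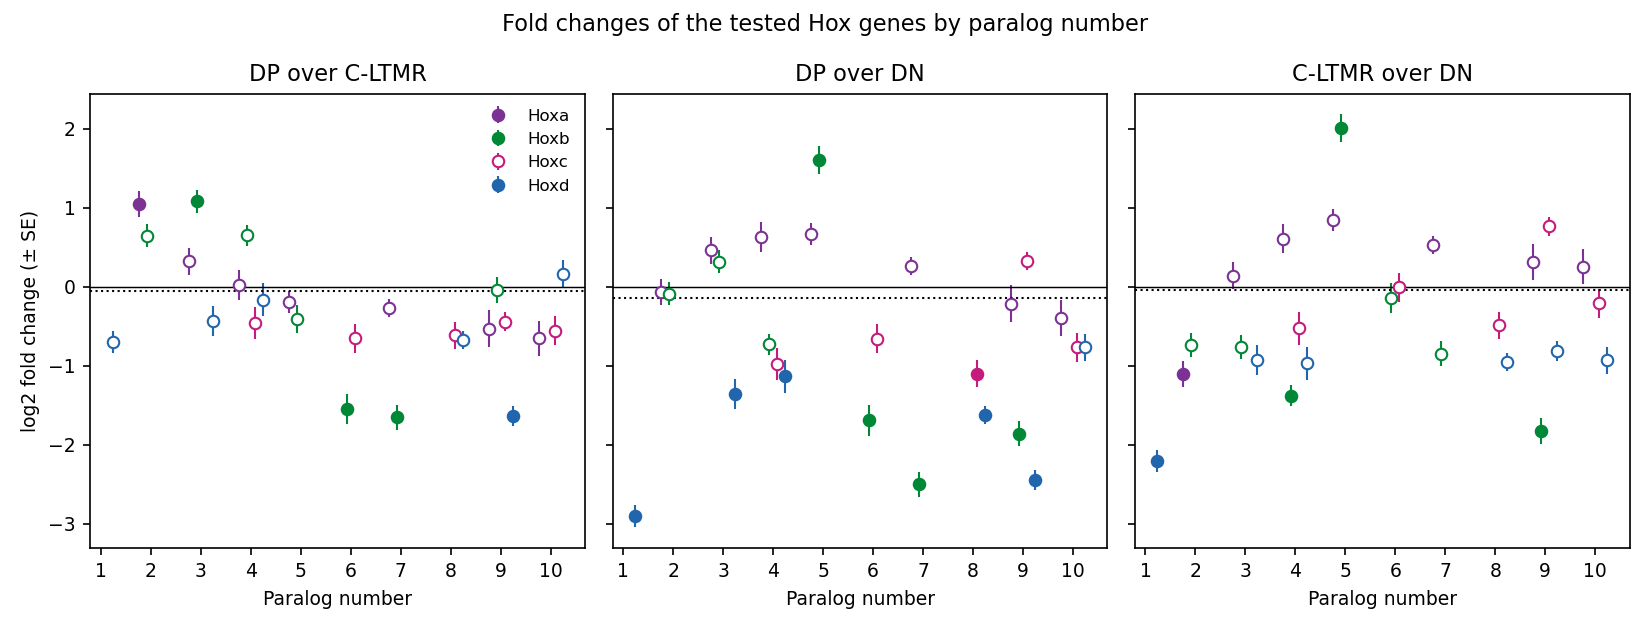
log2 fold change (± SE, limma, log2(RPKM + 0.5) scale) of the tested Hox genes shown against paralog number, coloured by cluster, for the 3 comparisons (panels). Filled points were called, open ones were not, and the dotted line is the median of all 12820 genes. In DP over C-LTMR the points at numbers 6 and 7 lie below 0, and in DP over DN all 6 Hoxd points lie below 0.

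C-LTMR against DN gave 5 called members of 26, 4 higher in DN and 1 higher in C-LTMR, where 25.9% of all genes were called, so the members' share of 19.2% was not above the background. By direction, 18.5% of all genes were called higher in DN and 7.32% higher in C-LTMR. The members' median log2 fold change was -0.51, against -0.04 over all genes. Beside Hoxd1, Hoxb9 and Hoxb5, the calls were Hoxb4 and Hoxa2, both low in C-LTMR. Hoxb4, known for expanding blood stem cells and for its role in the neck (chromosome 11, 96318267 to 96321638), was at 2.17 and 2.51 RPKM in C-LTMR, 4.03 and 3.87 in DP and 6.22 and 7.60 in DN, 3 separate levels. Its log2 fold change with C-LTMR over DN was -1.38 (SE 0.134, BH-adjusted p from limma = 0.000173). Hoxa2, which patterns the hindbrain and second branchial arch (chromosome 6, 52162511 to 52164831), was at 0.209 and 0.328 RPKM in C-LTMR, 1.15 and 1.01 in DP and 1.34 and 0.977 in DN. DP and DN overlapped for Hoxa2, and C-LTMR lay below both (C-LTMR over DN -1.11, BH-adjusted p from limma = 0.00129). That call was lost after quantile normalization (-0.42, limma BH-adjusted p = 0.0613), where the split of calls became 4 higher in C-LTMR and 3 higher in DN and the members' median 0.05. Without DN replicate 1 it fell just short of the fold criterion (-0.95), and likewise without C-LTMR replicate 1 (-0.99) and with a pseudocount of 1 (-0.76).

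In DP against C-LTMR 5 of 26 members were called (19.2%), 2 toward DP and 3 toward C-LTMR, where 11.4% of all genes were called, 4.52% as higher in DP and 6.85% as higher in C-LTMR. The members higher in DP were Hoxa2 (log2 fold change 1.04, limma BH-adjusted p = 0.00378) and Hoxb3, and those higher in C-LTMR were Hoxb6 (-1.55, limma BH-adjusted p = 0.00127), Hoxb7 (-1.65, limma BH-adjusted p = 0.000416) and Hoxd9. Hoxb3, a hindbrain and neck gene (chromosome 11, 96323126 to 96347930), was at 2.33 and 2.27 RPKM in DP against 0.796 and 0.848 in C-LTMR (log2 fold change 1.08, limma BH-adjusted p = 0.00202). Both calls toward DP lay close to the fold criterion: after rescaling to pan-sensory-neuron genes they were 0.96 for Hoxa2 and 0.97 for Hoxb3, leaving 0 calls toward DP and 3 toward C-LTMR, and with a pseudocount of 1 they were 0.72 and 0.86. Hoxa2 also lost its call without C-LTMR replicate 1 (0.93) or without DP replicate 1 (0.98).

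Markers of other cells also differed between these subsets. The immune markers summed to 231 and 259 RPKM in DP against 5.38 and 9.83 in C-LTMR, those of satellite glia and Schwann cells to 1329 and 1829 against 2440 and 3344, and red blood cell genes to 14.6 and 16.6 against 55.9 and 68.4. The glial marker Cdh19 ran against its sum, at 1.56 and 1.19 RPKM in DP and 0.306 and 0.298 in C-LTMR. The part of these cells in the Hox differences was not tested.

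By band of paralog number, with no test of the difference between bands, 5 of the 7 tested members numbered 1 to 3 had a positive log2 fold change in DP over C-LTMR (median 0.65), against 2 of 12 numbered 4 to 8 (median -0.43) and 1 of 7 numbered 9 to 13 (median -0.53). Under quantile normalization the medians of the 3 bands were 0.73, -0.33 and -0.38, and after rescaling to pan-sensory-neuron genes 0.51, -0.55 and -0.61. The 2 exceptions among numbers 1 to 3 were Hoxd1 (-0.70) and Hoxd3 (-0.43). Hoxb2 (8.77 and 6.71 against 4.51 and 4.93 RPKM) and Hoxb4 lay higher in DP without reaching the fold criterion (0.65 for both). At the other end, Hoxc10, a gene of lumbar levels, was at 0.286 and 0.341 RPKM in DP, 0.776 and 0.614 in C-LTMR and 1.11 and 0.679 in DN. DP over C-LTMR was -0.55 (95% interval -0.99 to -0.11) and did not pass the test (limma BH-adjusted p = 0.0652). Of the 28 members above the floor in all libraries, 13 had means in the order DP, C-LTMR, DN from low to high. The 7 members with their lowest mean in C-LTMR included Hoxa2, Hoxb2, Hoxb3, Hoxb4, Hoxd10 and Hoxd11, and the 6 with their lowest mean in DN were Hoxa3, Hoxa4, Hoxa5, Hoxa7, Hoxb5 and Hoxc9. These comparisons share libraries, so the orders are a description.

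**Figure D4:**
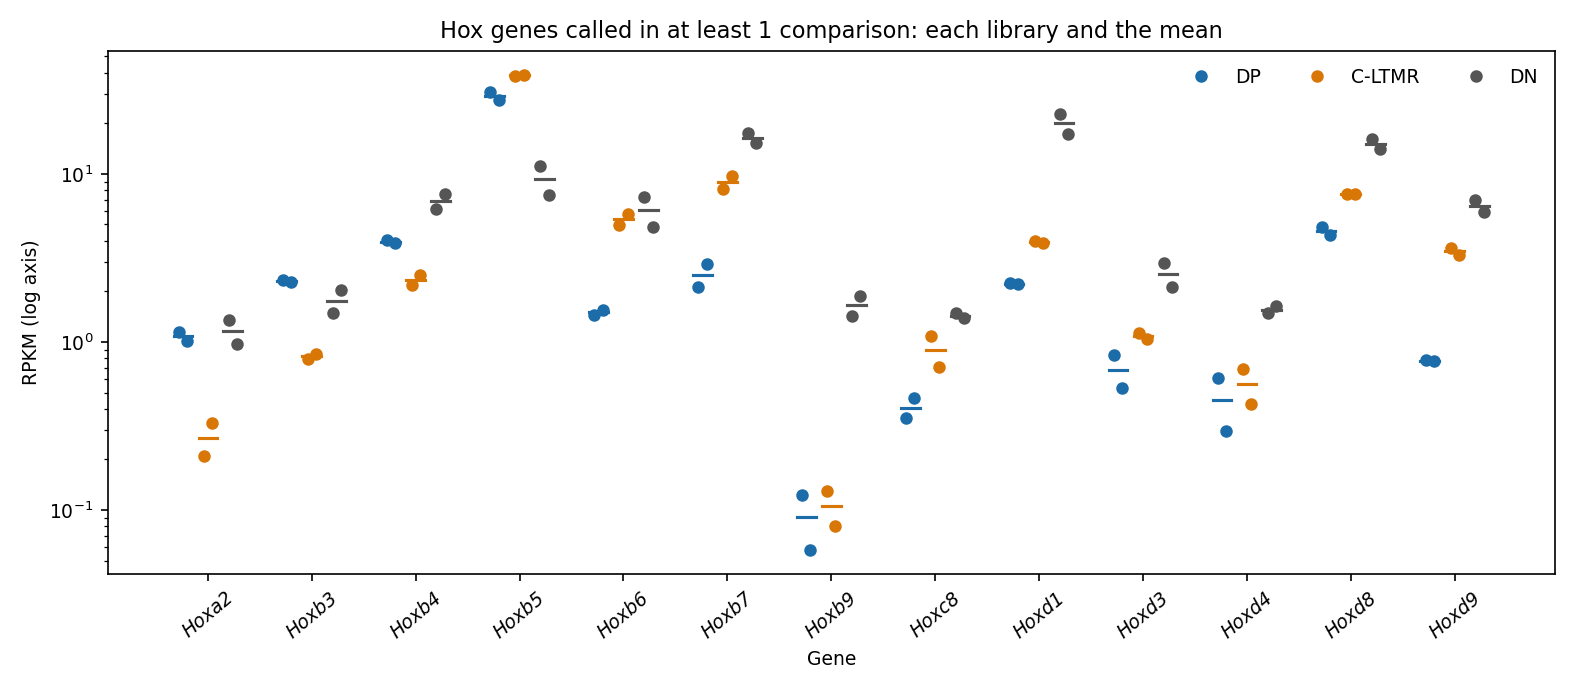
RPKM (log axis) of the 13 Hox genes called in at least 1 comparison, with 1 point per library and a bar at the mean of each subset. Hoxd1, Hoxd8, Hoxd9 and Hoxb7 rise from DP to C-LTMR to DN, Hoxb5 is lowest in DN, and Hoxa2, Hoxb3 and Hoxb4 are lowest in C-LTMR.

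The replicates of DN differed from each other in cell markers and, less, in Hox genes. DN replicate 2 had 2.07 times the summed glial marker level of DN replicate 1 and 1.61 times the summed vascular and fibroblast level. Apoe (5710 and 12918 RPKM in replicates 1 and 2) and Fabp7 (1282 and 3542) led the glial sum. Other markers of that list ran the other way. Mbp (392 and 340), Pmp22, Prx, Mag, Ncmap and Cldn19 were lower in DN replicate 2. Of the 28 members above the floor, 21 were higher in DN replicate 1, Hoxd1 (1.31 times), Hoxb5 (1.49 times) and Hoxb6 (1.52 times) among them. The 7 that were higher in DN replicate 2 were Hoxa3, Hoxb2, Hoxb3, Hoxb4, Hoxb9, Hoxd4 and Hoxd10. The part of non-neuronal cells in the DN levels was not tested. All 10 members called between DP and DN were still called without DN replicate 1, and all 10 also without DN replicate 2.

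Of the other genes inside the clusters, Mira, 2700086A05Rik and Mir196b, all inside Hoxa, passed the filter. Mira, a non-coding gene between Hoxa6 and Hoxa7 (chromosome 6, 52214492 to 52215288), was at 38.0 and 37.3 RPKM in DP, 42.4 and 43.4 in C-LTMR and 34.2 and 30.9 in DN, above every Hox gene in each of the 6 libraries. It is listed 335 bases from Hoxa7 and followed the same order of subsets as Hoxa7, with 0 calls in the 3 comparisons. The microRNA genes Mir10a and Mir10b, Mir196a-2 and Mir615 were listed at 0 in all libraries, and Mir196b, which shares exon sequence with Hoxa9, was at 0.630 to 0.822 RPKM in 5 libraries and at 0.0437 in DN replicate 2. The gene 2700086A05Rik was at 0.962 and 0.882 RPKM in DP, 0.322 and 0.362 in C-LTMR and 0.340 and 0.332 in DN, and passed the filter only through DP. These libraries were not made to capture mature microRNAs. Evx1 and Evx2, the homeobox genes beside the high-numbered ends of Hoxa and Hoxd, were listed at 0 or, for Evx1 in DP replicate 1, at 0.0164 RPKM. Outside the Hoxd cluster, Lnp was at 10.4 and 10.6 RPKM in DP and 7.02 and 6.52 in DN, and Mtx2 at 52.2 and 52.3 in DP and 76.4 and 76.1 in DN. Neither reached the fold criterion (0.59 and -0.54), so the genes at the borders of Hoxd lay in opposite directions around a cluster whose members were up to 8.99 times higher in DN.

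Among the 9 cofactor genes of the Pbx, Meis and Pknox families, 1 was called higher in DP and 3 higher in DN when DP was set against DN. Over all genes tested these shares were 6.66% and 20.4%. Those higher in DN included Pbx4 (DP over DN -1.06) and Meis2 (-1.08). Meis2 passed the filter only through DN, so its calls in both comparisons with DN are no independent support for a difference. Pknox2, called higher in DP, was at 23.8 and 24.2 RPKM in DP, 15.8 and 15.8 in C-LTMR and 9.995 and 8.14 in DN (DP over DN 1.36). In C-LTMR against DN, 1 of the 9 was called higher in C-LTMR (Pbx3) and 2 lower (Meis2 and Pknox1), beside 7.32% and 18.5% of all genes. In DP against C-LTMR 2 cofactor genes were lower in DP, Pbx4 (-1.34) among them, beside 6.85% of all genes. Of the 10 genes listed as inputs to axial patterning, 4 passed the filter. Of the retinoic acid receptor genes, Rarb was called higher in DN than in DP (-1.80) and Rarg lower (1.28). Cyp26b1, which breaks down retinoic acid, was at 1.34 and 2.24 RPKM in DP and between 0.108 and 0.192 in the other 4 libraries, and passed the filter only through DP, so no test is given for it. The receptor gene Rara, at 0.167 and 0.208 RPKM in DP, 0.184 and 0.372 in C-LTMR and 1.67 and 1.97 in DN, likewise passed only through DN. No test is given for it either.

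The list of Polycomb genes, which keep silent Hox genes off, and of trithorax and H3K27 demethylase genes, which oppose them, gave 0 higher and 4 lower of 23 in DP against DN, a count near or below the background of 20.4% of all genes called higher in DN, with a median log2 fold change of -0.35 beside -0.13 over all genes. The histone demethylase gene Kdm6b, which removes the Polycomb mark, was at 3.72 and 4.08 RPKM in DP, 2.82 and 3.72 in C-LTMR and 13.6 and 22.4 in DN. Phc1, Ezh2 and Cbx6 were the other 3. In C-LTMR against DN, 0 were higher and 3 lower (Kdm6b, Ezh2 and Phc1), where 18.5% of all genes were called higher in DN. In DP against C-LTMR the only call was Cbx6, at 21.7 and 26.1 RPKM in DP and 65.6 and 80.5 in C-LTMR.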

How the data were processed

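Both tables deposited by the authors were used. Total RNA (50 ng) of sorted cells was amplified by in vitro transcription before TruSeq libraries were made, per the labels' protocols. The tools and build named, per the submitters' processing notes, are CASAVA 1.8.2, edgeR 2.6.2 and GRCm38 (mm10). For the aligner, gene annotation and use of strand the sources used here give no name. The deposited RPKM table gives RPKM values of 23029 genes, and the deposited TMM table gives TMM-normalized counts, a signal on a common library size, of 6620 genes, 4 of them Hox genes.

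Depth was estimated from the steps of low RPKM values of genes with 1 GENCODE M21 transcript. At the best estimate 45.2% to 54.5% of these values lay within 0.05 of a whole read, so whole reads were not recovered and no count model was fitted. Floors cover counting error only. Of the 39 members, 16 share exon sequence with another annotated gene on either strand.

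Genes with a mean RPKM of at least 0.5 over the 6 libraries (12820) were fitted as log2(RPKM + 0.5) in limma 3.58.1 (R 4.3.3), with all 6 libraries in 1 fit and eBayes with a trend (3 residual and 3.68 prior degrees of freedom). Fold changes are on that scale. Calls need an adjusted p (Benjamini-Hochberg) below 0.05 together with a log2 fold change of 1 or more in size. The fit was tested on simulated data. Alternatives changed the pseudocount, filter, scaling, table, trend, block and libraries. Values per library were given for members called in any comparison, the leading member of each cluster and the highest-numbered member with a mean of at least 0.5 RPKM. Other members given by library were picked after their values were seen. Members, lists and alternatives were chosen with earlier results of these data known. Python 3.11.15 with pandas 2.3.3 and matplotlib 3.10.9 made sums and plots. Results of some genes are not reported here, though sums, counts and medians include them.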

Additional observations from a re-analysis of the deposited data

How the results depend on the processing

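When the 20 called fold changes of Hox genes were refitted under each alternative, 282 values kept direction and call, 16 kept direction and lost the call, and 0 reversed. The losses were in Hoxa2, Hoxb3, Hoxc8, Hoxd3 and Hoxd4. Some alternatives could change only the p-value, so their fold changes could not reverse. These were the fits without trend, without filter, with a block, or with only the 4 libraries compared. Leaving out a library of the subset not compared did the same. Genes absent from a setting were not counted: 4 of the 20 were refitted in the TMM-normalized table and 14 with a mean RPKM of at least 1. Counts of called members moved by more than 1.5 times from 5 in C-LTMR against DN to 8 with a pseudocount of 0.1 and to 3 with a mean RPKM of at least 1 (20 members tested), and from 5 in DP against C-LTMR to 3 with a pseudocount of 1 and to 3 rescaled to pan-sensory-neuron genes. The TMM-normalized table holds only 4 members and 6620 genes. There the called members were 2 of 4 in DP against DN, 2 of 4 in C-LTMR against DN and 0 of 4 in DP against C-LTMR, and all called genes 1645 (from 3470), 1562 (from 3317) and 843 (from 1457). Leaving out each library in turn gave 10 to 11 called members in DP against DN, 5 to 7 in C-LTMR against DN and 4 to 6 in DP against C-LTMR, and 3343 to 3683, 3084 to 3591 and 1361 to 1465 called genes. The cause of these changes was not tested.

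Scaling moved the balance of calls. Under quantile normalization 1515 genes were higher and 1971 lower in DP against DN (854 and 2616 without it), and 1507 higher and 1888 lower in C-LTMR against DN (939 and 2378), with medians of all genes of 0.15 in both (from -0.13 and -0.04). Rescaling to pan-sensory-neuron genes moved the medians to -0.28 in DP against DN and -0.17 in DP against C-LTMR (from -0.05). Without the leading member of each cluster, members numbered 1 to 3 held 35.9% of the sum in DN, 33.9% in DP and 19.5% in C-LTMR, and the weighted mean number of Hoxd was 3.34, 4.10 and 4.79. Hoxd1 was kept in this setting.

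The replicate numbers are shared by the subsets, but the labels do not say that they mark a common animal or day. Differences between replicates correlated across genes by 0.487 for DP and C-LTMR, 0.126 for DP and DN and 0.326 for C-LTMR and DN. With the replicate number as a block, the called members were 10 in DP against DN, 5 in C-LTMR against DN and 5 in DP against C-LTMR, and all called genes 3478, 3319 and 1474, so the block changed no call of a Hox gene. The filter of 0.5 RPKM kept 13 members out of the main fit. Without it all 39 were fitted, again with 2 libraries per subset. The called members were then 10 in DP against DN, 5 in C-LTMR against DN and 5 in DP against C-LTMR, the same genes as in the main fit.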
